A study of Homo sapiens with 6 samples.

Results

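The BCL2 family and the inhibitor of apoptosis (IAP) family were followed through 10 genes in U2OS cells, an established human osteosarcoma line, with and without an inhibitor of PARG, the glycohydrolase that takes poly(ADP-ribose) chains apart. The 10 genes were chosen by symbol, from 60708 gene identifiers in all: the survival genes BCL2, BCL2L1, BCL2L2 and MCL1, the pore-forming genes BAK1 and BOK, the outer membrane protein gene BCL2L13, and the IAP genes XIAP, BIRC2 and BIRC3. All 10 matched a single row and all 10 passed the filter on low counts that left 20409 genes for testing. The 2 groups shared the wild-type U2OS background and a culture of 4 days, in the solvent DMSO in 3 libraries and in 25 µM of the PARG inhibitor PDD00017273 in the other 3 (called PARGi here). The series describes its replicates as biological but not whether they came from separate cultures or days. The p-values weigh the group difference against the spread between these libraries, which may differ from that between independent cultures. Total RNA was sequenced as a whole, so a shift in the number of cells of a kind and a shift in RNA per cell cannot be told apart.

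Proteins of the BCL2 family decide whether the outer membrane of the mitochondrion is breached in apoptosis. Survival proteins such as BCL-2, BCL-XL, BCL-w and MCL-1 bind and restrain the pore formers BAX and BAK and the short BH3-only proteins that set them off. Once the membrane is open, released cytochrome c starts the caspase cascade, on which the IAP protein XIAP acts by binding and blocking caspases. The IAP proteins cIAP1 and cIAP2, the products of BIRC2 and BIRC3, are ubiquitin ligases of tumour necrosis factor receptor complexes.

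The libraries held between 60286931 and 80605145 counts, with TMM scaling factors, which correct for composition, between 0.9953 and 1.007. Transcripts of the mitochondrial genome made up 3.48% to 3.88% of the counts. Of the 6 mesenchymal and osteosarcoma markers, RUNX2, COL1A1, COL1A2, SPARC, VIM and CDH2, all were measured, and their summed level was 8414 to 8999 CPM (normalised counts, scaled to the library total with TMM) in DMSO and 8524 to 8571 CPM in PARGi. Of these, 3 were lower in PARGi by the test described below and 0 were higher: RUNX2 (83.3 ± 1.14 to 69.0 ± 0.606 CPM, SD, n = 3 each), COL1A2 (13.0 ± 1.38 to 7.41 ± 0.685 CPM) and SPARC (1677 ± 17.1 to 1583 ± 10.9 CPM). CDKN2A and TERT, which are silent in this line, lay at most at 0.0541 and 0.0249 CPM. Summed markers of leukocytes, endothelium and hepatocytes each stayed under 1.34 CPM in every library, and 0 of their tested genes passed. The 3 epithelial markers summed to 5.37 to 5.86 CPM in DMSO and 5.09 to 5.48 CPM in PARGi, with CDH1 alone among them past the test (0.718 ± 0.0247 to 1.14 ± 0.208 CPM, SD, n = 3 each). The part of these shifts in the results was not tested.

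At a Benjamini-Hochberg adjusted p under 0.05 in edgeR's quasi-likelihood fit, 6 of the 10 genes differed between the groups. BAK1, BCL2L1, MCL1, BCL2L13 and BIRC2 were higher in PARGi and BOK was lower, while BCL2, BCL2L2, XIAP and BIRC3 did not pass. Among all tested genes, 24.3% passed (13.2% higher, 11.0% lower). Because 9 of the 10 genes had a mean of at least 10 CPM, where counts are more precise, the share is also given for the 10143 tested genes at that level, of which 35.7% passed (22.1% higher, 13.6% lower). The calls among all genes split into 54.5% higher and the rest lower, and into 40.5% higher with upper-quartile scaling. The changes were small: the called members lay between -8.66% and 20.0%, and the median log2 fold change over the 10 genes was 0.11, against -0.0070 over all tested genes. All 3 PARGi libraries lay above all 3 DMSO libraries for 6 of the 10 genes and below them for 1. Of all tested genes 38.0% were apart in this way, 19.8% higher and 18.2% lower, and of those at 10 CPM or more 49.8% were, 30.7% higher and 19.1% lower.

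**Figure D1:**
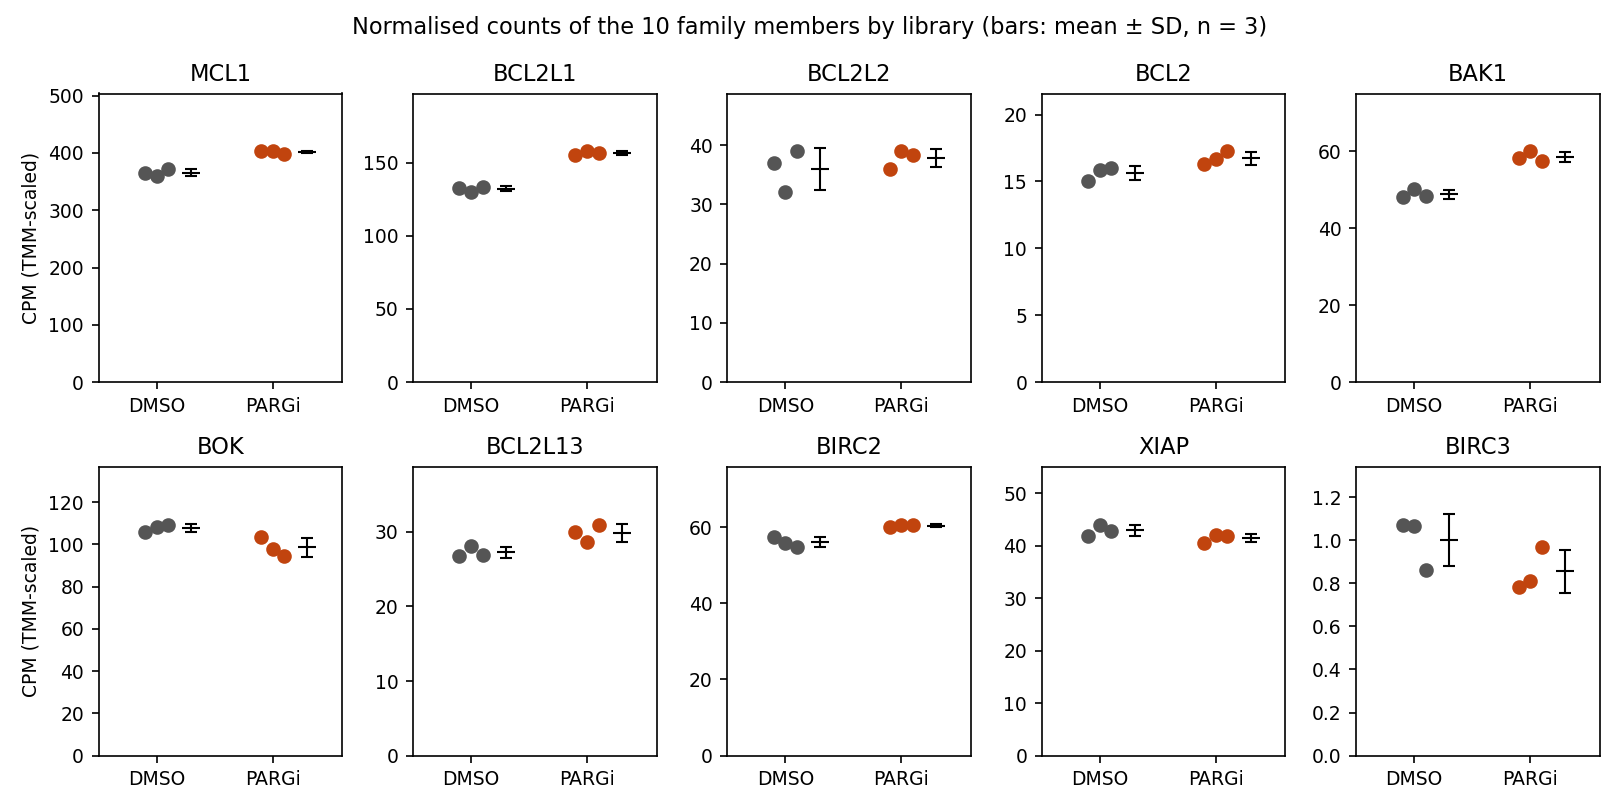
Normalised counts (CPM after TMM scaling, linear axes from 0) of the 10 genes in each of the 3 DMSO (grey) and 3 PARGi (orange) libraries, with the mean and SD beside each group. BAK1, BCL2L1, MCL1, BCL2L13, BIRC2 and BCL2 have all PARGi points above all DMSO points, BOK has them below, and BCL2L2, XIAP and BIRC3 overlap.

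Promoter sequences were read from RefSeq for the genes whose levels moved most, or whose upstream region holds a site of interest, to show what lies before the start of each. Windows of 300 bases, from 250 before to 50 after a start site (GRCh38.p14), were found for 8 of the 10 genes, all but MCL1 and BCL2L2. The windows were searched on both strands for motifs chosen after the expression values were known, and each stretch below runs from the upstream end of its window to the last base before the window meets an exon of its gene in GENCODE 29. BAK1 and BCL2L1 are the genes with the largest rises, BOK is the gene that fell, and BIRC3 is a textbook NF-kB target. In each stretch the capitals mark the matches to 1 motif only, a p53 half-site in BAK1, TATAAA in BCL2L1, CCAAT in BOK and kappa-B sites in BIRC3, and other matches are left in lower case.
BAK1, chr6:33580294-33580526 (minus strand): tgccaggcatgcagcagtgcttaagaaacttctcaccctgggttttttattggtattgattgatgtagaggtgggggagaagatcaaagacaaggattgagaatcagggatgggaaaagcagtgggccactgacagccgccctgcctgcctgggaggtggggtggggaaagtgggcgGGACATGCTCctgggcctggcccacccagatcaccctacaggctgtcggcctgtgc
BCL2L1, chr20:31723990-31724213 (minus strand): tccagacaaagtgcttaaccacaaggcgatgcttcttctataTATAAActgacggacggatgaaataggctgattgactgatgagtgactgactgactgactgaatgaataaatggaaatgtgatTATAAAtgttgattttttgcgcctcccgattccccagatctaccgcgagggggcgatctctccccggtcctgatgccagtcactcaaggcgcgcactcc
BOK, chr2:241558495-241558720 (plus strand): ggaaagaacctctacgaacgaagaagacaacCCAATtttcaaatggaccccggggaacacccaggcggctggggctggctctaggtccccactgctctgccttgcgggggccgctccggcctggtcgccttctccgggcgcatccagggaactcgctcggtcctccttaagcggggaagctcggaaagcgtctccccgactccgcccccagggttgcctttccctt
BIRC3, chr11:102317234-102317449 (plus strand): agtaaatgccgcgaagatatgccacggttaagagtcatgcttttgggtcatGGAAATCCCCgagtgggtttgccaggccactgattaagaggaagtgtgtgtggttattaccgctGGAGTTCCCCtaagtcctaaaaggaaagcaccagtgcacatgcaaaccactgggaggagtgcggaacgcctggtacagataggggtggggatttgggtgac
The p53 half-site of BAK1, GGACATGCTC, lies 73 to 64 bases before the start and shares 1 base with a GC box (GGGCGG). The half-site pattern reads the same on both strands, so any match to it is a match on both. Such a half-site was found in 6.63% of all 35116 windows, a kappa-B site in 11.3%, TATAAA in 11.5%, CCAAT in 34.6% and GGGCGG in 45.0%. Some of these motifs were found elsewhere among the 10 genes. The BAK1 stretch also held a CCAAT match (chr6:33580474-33580478) and 2 GC boxes, and the BOK stretch held a GC box (chr2:241558696-241558701). A BCL2L13 window held a p53 half-site beyond its start site (chr22:17706810-17706819). Windows of BCL2L1, BCL2L13, BIRC2 and XIAP held GC boxes as well. BIRC3 held 2 kappa-B matches, 199 to 190 and 135 to 126 bases before the start, both on the minus strand. The TATAAA matches of BCL2L1 lay 208 to 203 and 125 to 120 bases before the start site of the window printed. Its other window, not printed, held no TATAAA. Both BIRC2 windows held the same copy of TGACGTCA, the cyclic AMP response element (chr11:102347207-102347214). It reached the start site of 1 window and lay 167 to 160 bases before that of the other. The element was found in 1.85% of all windows. The BOK window starts from a RefSeq start site and lies inside the gene as GENCODE 29 draws it, where an upstream first exon begins at 241551424. A match of letters is a description of these windows and does not show that a factor was bound.

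MCL1 encodes a short-lived survival protein and was the most abundant of the 10 genes. The gene spans 150574551 to 150579738 of chromosome 1, minus strand (GENCODE 29, GRCh38, as for all positions here). Its level was 366, 359 and 371 CPM in DMSO replicates 1 to 3 and 402, 403 and 399 CPM in PARGi replicates 1 to 3. Every PARGi library exceeded every DMSO library, and the 3 PARGi values lay closer together than the 3 DMSO values. MCL1 rose by 0.14 on the log2 scale (standard error, SE, 0.024), which is 9.82% with 95% confidence limits of 6.15% and 13.6% (edgeR adjusted p = 0.000147). The gene counts do not tell its 4 annotated transcripts apart.

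BCL2L1 encodes BCL-XL, which holds BAK and BAX in check, and by splicing also a short form that promotes death. The gene spans 31664452 to 31723989 of chromosome 20, minus strand. Its level was 133, 130 and 134 CPM in the DMSO replicates and 155, 158 and 157 CPM in the PARGi replicates. The gap between the groups was several times the spread within either of them. BCL2L1 rose by 0.24 (log2, SE 0.025), or 18.5% with limits of 14.3% and 22.8%, with the smallest p of the 10 genes (edgeR adjusted p = 8.75e-08). Of all tested genes, 23.8% moved farther than this in either direction. The antisense gene ABALON covers 43.0% of the exon length of BCL2L1, but it held between 10 and 28 counts in a library, against 8295 to 12616 for BCL2L1, and it did not pass (edgeR adjusted p = 0.493). Whether reads were counted by strand is not given in the sources used here. If counting ignored the strand and left out reads common to both genes, the level of BCL2L1 would be lowered in all 6 libraries. Long and short BCL2L1 forms are counted together.

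BCL2, the founding survival gene of the family, spans 63123346 to 63320128 of chromosome 18, minus strand. DMSO replicates 1 to 3 held 15.0, 15.8 and 16.0 CPM of BCL2, and PARGi replicates 1 to 3 held 16.3, 16.7 and 17.3 CPM. The groups were apart, by a margin smaller than the spread within either group. Its difference of 0.099 on the log2 scale (SE 0.047) did not pass (unadjusted p = 0.0454, edgeR adjusted p = 0.133). The limits of 0.154% and 14.5%, which are not adjusted for the number of genes, include the 9.82% of MCL1.

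BCL2L2, on the plus strand of chromosome 14 from 23298790 to 23311759, encodes BCL-w. Its levels were 36.9, 32.1 and 39.0 CPM in DMSO and 36.0, 39.0 and 38.4 CPM in PARGi. The groups overlapped, and DMSO replicate 2 was the lowest library of the 6. The difference of 0.070 on the log2 scale (SE 0.049) did not pass (edgeR adjusted p = 0.339), and its limits were -2.18% and 12.6%. Without DMSO replicate 2 it was -0.0039, and without DMSO replicate 3 it was 0.13 with an edgeR adjusted p of 0.0323, so the value rests on which DMSO libraries are kept. The read-through gene BCL2L2-PABPN1 shares 19.4% of the exon length of BCL2L2 on the same strand and held 4 to 12 counts in a library. How reads common to both were assigned is not given in the sources used here, and the level of BCL2L2 is uncertain for that reason. PPP1R3E, on the opposite strand, covers 4.92% of that length, and it fell from 8.16 ± 0.456 to 6.92 ± 0.435 CPM (edgeR adjusted p = 0.0126).

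The pore-forming genes among the 10, BAK1 and BOK, moved in opposite directions, and BAX, which is outside the 10 and described below, rose. BAK1 encodes BAK, which sits in the outer membrane and, when set off, assembles into pores. The gene spans 33572547 to 33580293 of chromosome 6, minus strand. Its level was 48.0, 50.1 and 48.4 CPM in the DMSO replicates and 58.2, 60.0 and 57.5 CPM in the PARGi replicates, with a gap of over 7 CPM between the highest DMSO and the lowest PARGi library. BAK1 rose by 0.26 (log2, SE 0.031), or 20.0% with limits of 14.8% and 25.4% (edgeR adjusted p = 7.44e-07). This was the largest change among the 10 genes, within the limits of that of BCL2L1. The pseudogene BAK1P1 holds 12.3% of the 50-base windows of BAK1 transcripts, so some reads of BAK1 may have been set aside or assigned to that copy. GGNBP1 covers 4.11% of its exon length on the opposite strand and held 1 to 3 counts in a library.

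BOK encodes a relative of BAX and BAK that is reported to act without the restraint of survival proteins and resides largely at the endoplasmic reticulum. BOK spans 241551424 to 241574138 of chromosome 2, plus strand. Its level was 106, 108 and 109 CPM in the DMSO replicates and 103, 97.6 and 94.7 CPM in the PARGi replicates. All PARGi libraries were below all DMSO libraries, with PARGi replicate 1 close to the lowest of them. BOK fell by 0.13 on the log2 scale (SE 0.030), a change of -8.66% with limits of -12.5% and -4.64% (edgeR adjusted p = 0.0023). Leaving out a single library moved the log2 fold change between -0.17 (without PARGi replicate 1) and -0.10 (without PARGi replicate 3), and it passed each time. BOK-AS1 overlaps 7.41% of the exon length on the opposite strand and held 0.546 ± 0.133 CPM in the DMSO libraries and 0.540 ± 0.206 CPM in the others.

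BCL2L13 encodes an outer membrane protein with BCL2 homology domains that is also known as a mitophagy receptor. The gene is on the plus strand of chromosome 22, from 17628855 to 17730855. Its level was 26.7, 28.2 and 26.9 CPM in DMSO and 30.0, 28.6 and 31.0 CPM in PARGi. The groups were apart, with DMSO replicate 2 and PARGi replicate 2 nearly level. BCL2L13 rose by 0.13 (log2, SE 0.040), or 9.60% with limits of 3.55% and 16.0% (edgeR adjusted p = 0.0165). This was the least firm of the calls: it was lost with upper-quartile scaling (0.11, edgeR adjusted p = 0.0527) and without DMSO replicate 1, PARGi replicate 1 or PARGi replicate 3, where the log2 fold change was between 0.10 and 0.13.

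**Figure D2:**
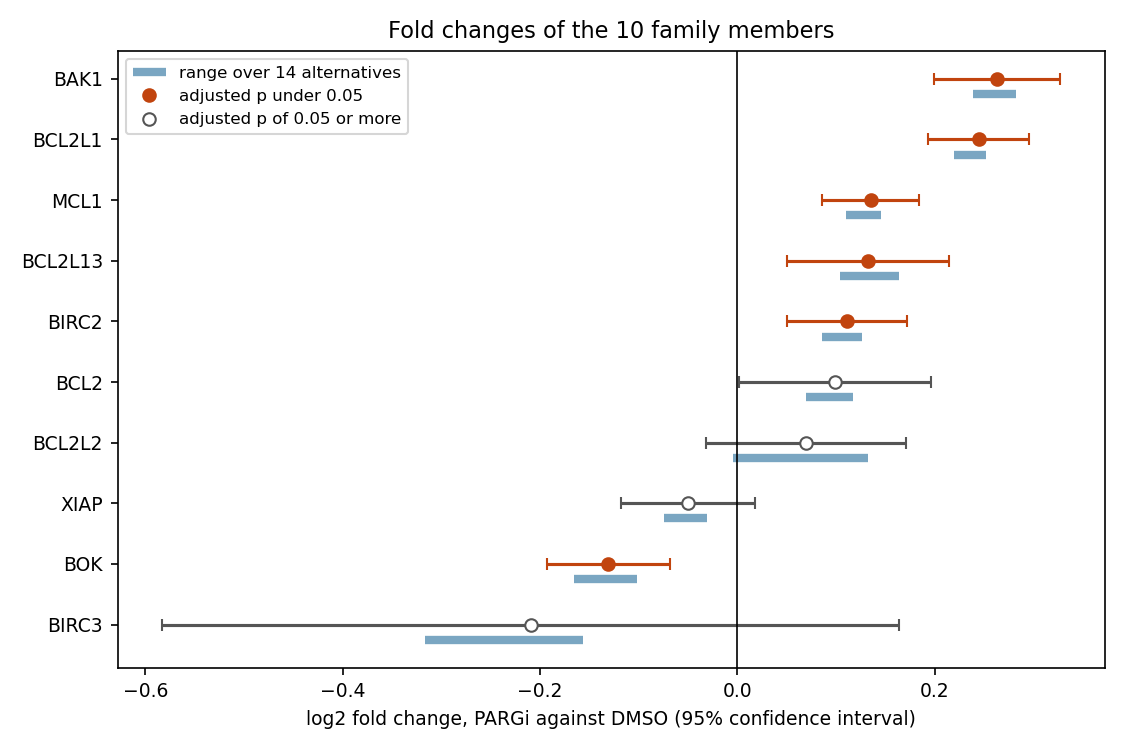
Log2 fold change of each of the 10 genes, PARGi against DMSO, with its 95% confidence interval (filled orange points passed an edgeR adjusted p of 0.05, open grey points did not); the blue bar under each point spans the value over 14 alternative analyses. BAK1 (0.26) and BCL2L1 (0.24) lie highest, BOK (-0.13) is the only called gene below 0, and the interval of BIRC3 is the widest.

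Of the IAP genes, BIRC2 alone passed. BIRC2 lies on the plus strand of chromosome 11, from 102347211 to 102378670, next to BIRC3, which runs from 102317450 to 102339403 on the same strand. BIRC2 was at 57.4, 55.7 and 54.8 CPM in the DMSO replicates and at 60.0, 60.6 and 60.6 CPM in the PARGi replicates. The groups were apart and the PARGi libraries lay within 1 CPM of each other. BIRC2 rose by 0.11 (log2, SE 0.029), or 7.99% with limits of 3.55% and 12.6% (edgeR adjusted p = 0.00697). BIRC2 and BIRC3 are close paralogs, but only 0.224% of the 50-base windows of BIRC2 transcripts occur in BIRC3.

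BIRC3 was the rarest of the 10 genes, with 47 to 78 counts in a library. Its level was 1.07, 1.07 and 0.860 CPM in DMSO and 0.784, 0.812 and 0.970 CPM in PARGi. The groups overlapped, since PARGi replicate 3 lay above DMSO replicate 3. BIRC3 stood at -0.21 on the log2 scale (SE 0.18), which did not pass (edgeR adjusted p = 0.448). The limits of -33.2% and 12.0% hold the change seen for BIRC2, so at this depth a difference between the neighbours cannot be read from their separate tests, and it was not tested itself.

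XIAP, the IAP that binds caspases directly, lies on the plus strand of the X chromosome, from 123859724 to 123913979. It was at 41.9, 44.0 and 42.7 CPM in the DMSO replicates and at 40.5, 41.9 and 41.7 CPM in the PARGi replicates. The groups overlapped narrowly. XIAP stood at -0.050 on the log2 scale (SE 0.033) and did not pass (edgeR adjusted p = 0.305), with limits of -7.82% and 1.28%. Whether it differs from BIRC2 was not tested. Of the 50-base windows of XIAP transcripts, 4.56% occur in other annotated genes, 731 in all. The pseudogene XIAPP1 holds 1.51%, the most of any single gene.

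Per length of transcript, the order of the 10 genes was the same in both groups. On the RPKM scale (CPM divided by the kilobases of annotated exon), MCL1 stood first at 83.6 ± 1.36 in the DMSO libraries and 91.8 ± 0.500 in the PARGi libraries (SD, n = 3 each). BCL2L1 and BOK came next and could not be ranked in DMSO, where they overlapped at 39.9 ± 0.522 and 39.7 ± 0.653 RPKM. In PARGi they were apart, at 47.2 ± 0.426 RPKM for BCL2L1 and 36.3 ± 1.61 RPKM for BOK. BAK1 followed at 22.1 ± 0.505 and 26.5 ± 0.587 RPKM in DMSO and PARGi, and then BIRC2 at 12.4 ± 0.288 and 13.3 ± 0.0763 RPKM. BCL2L2 was at 8.59 ± 0.836 RPKM, XIAP at 4.75 ± 0.115 RPKM and BCL2L13 at 3.56 ± 0.102 RPKM in DMSO. BCL2 was at 1.33 ± 0.0452 RPKM and BIRC3 at 0.133 ± 0.0161 RPKM in the same libraries. Apart from BCL2L1 and BOK in DMSO, no 2 neighbours in the order overlapped in either group. With the longest transcript as the length, XIAP and BCL2L13 changed places. Over the 57.0% of the exon length of BCL2L1 that no other gene's exons cover, a length chosen after seeing the data, its counts came to 69.9 ± 0.916 RPKM in DMSO and 82.8 ± 0.746 RPKM in PARGi, and the order of the means in DMSO was the same. BCL2L1 would stand that high if reads over ABALON were left out.

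The makeup of the survival genes shifted by under 2 percentage points. MCL1 made up 62.7% ± 0.274 of the summed RPKM of MCL1, BCL2L1, BCL2L2 and BCL2 in DMSO and 61.4% ± 0.383 in PARGi (SD over 3 libraries). BCL2L1 made up 29.9% ± 0.222 and 31.6% ± 0.149, and its share was higher in each PARGi library (31.4%, 31.6% and 31.7%) than in any DMSO library (29.9%, 30.1% and 29.7%). BCL2L2 made up 6.44% ± 0.501 and 6.03% ± 0.220. BCL2 itself was a minor component, at 0.996% ± 0.0384 and 0.951% ± 0.0281. Over bases under no other gene, BCL2L1 made up 42.1% in DMSO and 44.0% in PARGi, and MCL1 50.3% and 48.9%, a larger step than that between the groups. The 4 genes summed to 133 ± 2.704 RPKM in DMSO and 150 ± 0.877 RPKM in PARGi.

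The RPKM ratio of BAK1 to BOK was 0.556, 0.568 and 0.542 in the DMSO replicates and 0.691, 0.754 and 0.745 in the PARGi replicates. BAK1 stood at 16.2, 17.3 and 16.1 per 100 of the survival sum in DMSO and at 17.7, 18.0 and 17.4 in PARGi, groups that nearly met. BOK went from 29.8 ± 0.700 to 24.3 ± 1.15 per 100. These sums and ratios are descriptions of chosen genes, without a test.

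**Figure D3:**
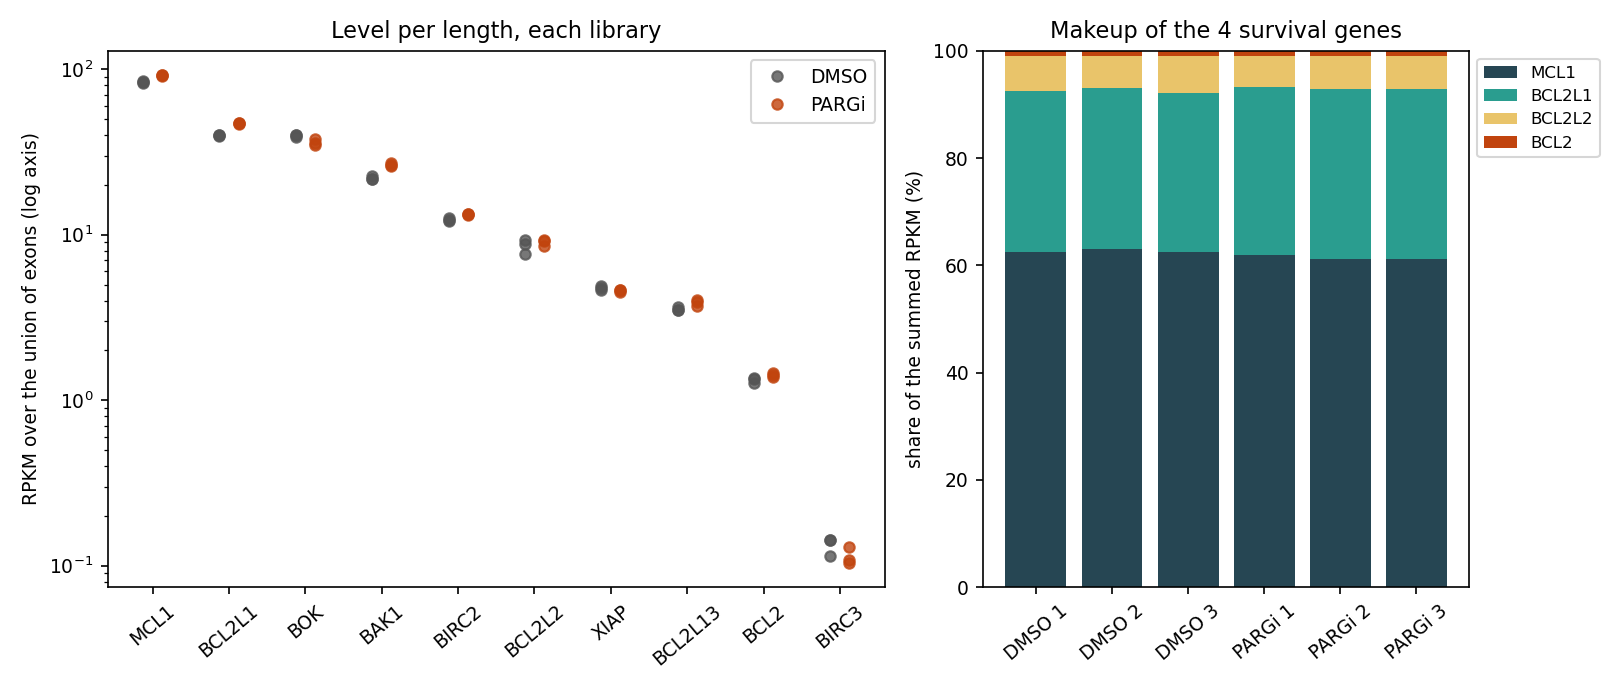
Left, RPKM over the union of exons on a log axis for each of the 10 genes in the 3 DMSO (grey) and 3 PARGi (orange) libraries; right, the share of each survival gene in the summed RPKM of MCL1, BCL2L1, BCL2L2 and BCL2 in each library. MCL1 (62.7% in DMSO, 61.4% in PARGi) and BCL2L1 (29.9% and 31.6%) make up most of the sum in every library.

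Other genes of the death pathway were compared through 11 lists with 75 genes in all, of which 67 were tested and 27 passed. Among all tested genes 24.3% passed, and among those with a mean of at least 10 CPM 35.7% did. These shares are the background for the counts of every list below, and no list was tested as a set. Among the other multidomain BCL2 genes, 3 of 6 were tested and 2 rose, with 0 lower. BAX, which encodes the second classical pore former, rose from 147 ± 11.1 to 188 ± 2.61 CPM (SD, n = 3 each, 0.35 on the log2 scale, SE 0.036, edgeR adjusted p = 8.45e-08), beside 0.26 for BAK1. BCL2L12 rose from 61.7 ± 1.48 to 70.2 ± 0.394 CPM (0.18, SE 0.028). BCL2A1, BCL2L10 and BCL2L14 had at most 6 counts in any library.

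BH3-only genes changed in both directions, with 4 of 8 higher, 3 lower and a median log2 fold change of 0.17. BMF, whose product binds the survival proteins after loss of anchorage, fell from 22.6 ± 1.41 to 10.0 ± 0.254 CPM (-1.17). BCL2L11, which encodes BIM, fell from 60.6 ± 1.98 to 47.1 ± 0.333 CPM (-0.36), and HRK from 16.1 ± 0.484 to 11.5 ± 0.744 CPM (-0.48). All 3 passed with an edgeR adjusted p of 2.9e-07 or less. The 4 that rose were BID, BBC3, PMAIP1 and BAD, from 0.15 for BAD to 0.36 for BID. They fall outside the rule for named genes and were chosen after their values were seen. Of the death receptor genes, 2 of 3 tested rose: FAS from 8.69 ± 0.917 to 17.6 ± 1.00 CPM (1.02 on the log2 scale, edgeR adjusted p = 1.73e-11) and TNFRSF10B, a TRAIL receptor, from 79.0 ± 0.565 to 97.9 ± 1.98 CPM (0.31).

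**Figure D4:**
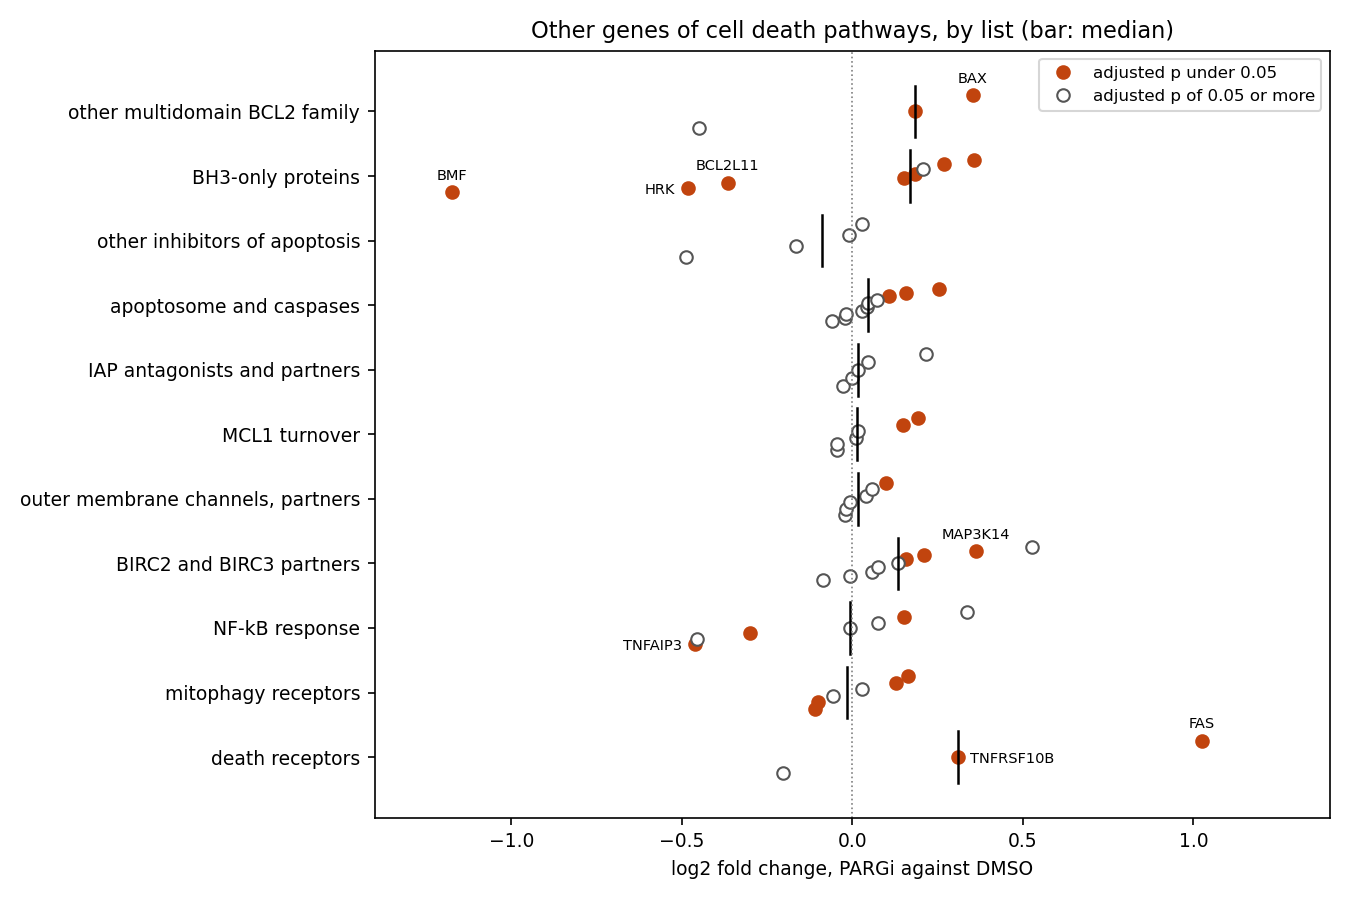
Log2 fold change, PARGi against DMSO, of the 67 tested genes of 11 lists (filled orange points passed an edgeR adjusted p of 0.05, open grey points did not), with each list's median as a black bar. BMF (-1.17) and FAS (1.02) lie farthest out, and the lists of other inhibitors of apoptosis and of IAP antagonists hold no filled point.

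Downstream of the mitochondrion, 3 of 10 tested apoptosome and caspase genes rose and 0 fell, at a median of 0.046. CASP6, an executioner caspase gene, rose from 15.0 ± 0.640 to 17.9 ± 0.626 CPM (log2 fold change 0.25, edgeR adjusted p = 0.000351). APAF1, which encodes the scaffold of the apoptosome, rose from 21.1 ± 1.17 to 23.5 ± 0.547 CPM (0.16, edgeR adjusted p = 0.0107). The APAF1 call was lost without DMSO replicate 1 (0.11) or PARGi replicate 3 (0.14). Of the other IAP genes 0 of 4 tested passed in edgeR, as did 0 of the 5 IAP antagonists and partners. In both lists 0 had an unadjusted p under 0.05 and 0 passed with DESeq2 or limma-voom, which called 20.2% and 23.9% of all genes. Several had few counts: BIRC7 (mean over all libraries 0.197 CPM), NAIP (0.828), DIABLO (1.57), XAF1 (0.207) and SEPTIN4 (1.34). Their SEs were 0.14 to 0.42, so a small change could not be seen in them. BIRC5, BIRC6, HTRA2 and TAB1 were at 42.3 CPM or more. These genes are named after their values were seen.

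Around BIRC2 and BIRC3, 3 of 9 partners in receptor signalling rose and 0 fell, at a median of 0.13. MAP3K14, which encodes the NF-kB inducing kinase, rose from 36.1 ± 1.92 to 46.5 ± 0.862 CPM (log2 fold change 0.36, edgeR adjusted p = 8.6e-08). TRAF3, the adaptor that with cIAP proteins keeps that kinase low, rose from 35.1 ± 0.434 to 40.7 ± 1.69 CPM (0.21), and the receptor gene TNFRSF1A from 162 ± 0.0832 to 180 ± 0.465 CPM (0.16). Of 7 tested NF-kB response genes, 2 fell and 1 rose. NFKBIA, the feedback inhibitor of NF-kB, fell from 15.2 ± 0.846 to 12.3 ± 0.702 CPM (-0.30), TNFAIP3 fell from 3.97 ± 0.141 to 2.89 ± 0.214 CPM (-0.46), and NFKBIE rose from 19.4 ± 0.616 to 21.5 ± 0.724 CPM (0.15). The call of NFKBIE was lost without DMSO replicate 3 (0.13), PARGi replicate 1 (0.13) or PARGi replicate 2 (0.14).

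Among genes for the turnover of MCL-1 protein, 2 of 6 rose and 0 fell. They were FBXW7 (34.8 ± 1.51 to 39.8 ± 0.813 CPM, log2 fold change 0.19) and BTRC (35.0 ± 0.697 to 38.8 ± 1.36 CPM, 0.15), which encode substrate receptors of ubiquitin ligases. Of 6 genes for outer membrane channels and partners of BAK or BAX, VDAC3 rose (102 ± 1.83 to 109 ± 4.35 CPM, 0.098, edgeR adjusted p = 0.0165), a call lost with upper-quartile scaling (0.073) and without PARGi replicate 3 (0.066). VDAC2, whose product holds BAK at the membrane, did not pass (244 ± 12.2 and 241 ± 5.49 CPM, edgeR adjusted p = 0.658), and it is named after its values were seen. Beside BCL2L13, 2 mitophagy genes rose and 2 fell of 6. PINK1 rose from 49.6 ± 1.104 to 54.2 ± 0.685 CPM (0.13), PHB2 fell from 171 ± 0.701 to 160 ± 3.41 CPM (-0.099), and BNIP3L fell from 140 ± 4.95 to 130 ± 4.61 CPM (-0.11) with overlapping groups. The other riser, BNIP3 (14.2 ± 1.03 to 15.9 ± 0.382 CPM, 0.16, edgeR adjusted p = 0.0257), is named after its values were seen, and its call was lost with upper-quartile scaling and without DMSO replicate 3, PARGi replicate 2 or PARGi replicate 3. The falls of PHB2 and BNIP3L did not pass without PARGi replicate 2 (-0.081 and -0.086). The list medians of MCL1 turnover (0.015), outer membrane channels (0.017) and IAP antagonists (0.016) were below 0 with upper-quartile scaling, at -0.0097, -0.0072 and -0.0082.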

How the data were processed

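RNA was sequenced from U2OS cells in 2 groups of 3 libraries, grouped by sample title. The authors deposited raw whole-number counts per gene, a single column per library, without headers. Per the submitters' processing notes, cutadapt 1.18, STAR 2.7.3a and SAMtools 1.9 were used on hg38; the annotation release and counting options are not given in the sources used here. Per the labels' protocols, a strand-keeping total RNA kit was used. Whether counting used the strand was not settled: of 19 protein-coding genes with over 95% of their exon length under opposite-strand exons, 21.1% had 600 counts or more in all, against 55.9% of those with none. Totals of 60286931 to 80605145 counts set the precision, and counting error is a lower limit because no molecular identifiers are recorded.

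Gene IDs were paired with symbols through a name table, 60507 of 60708. Positions and lengths came from GENCODE 29, which held 58440 of the 60708 identifiers and so is not the authors' release. Counts were fitted with edgeR 4.0.16 (R 4.3.3): genes were kept by filterByExpr, scaled by TMM and tested two-sided for treatment with glmQLFit and glmQLFTest over 6 libraries, with Benjamini-Hochberg adjustment over 20409 genes and a threshold of 0.05. SEs were derived from the fold change and its F statistic. RPKM was computed from TMM-scaled CPM. Motif shares cover all RefSeq windows. Alternatives were DESeq2 1.42.0, limma-voom (limma 3.58.1), DESeq2 size factors, upper-quartile scaling, no count filter, at least 10 counts in every library, robust dispersions, a replicate block, and each library left out. The fitting code was also run on simulated counts with known changes, as a check of the code and not of the p-values here. Named genes were the 10 members, genes overlapping their exons on the same strand, and up to 3 called genes per list with the smallest p. By this rule ADAMTSL4-AS1, which overlaps MCL1 by 2 bases, also was included (19 to 27 counts in a library). The genes overlapping members on the opposite strand, ABALON, PPP1R3E, GGNBP1 and BOK-AS1, fall outside the rule and were added after their values were seen. The members and lists were chosen with earlier results of these data known. The values of 1 gene that this rule takes from the lists are not reported here. Of the NF-kB list, SOD2 matched no symbol and was not used here. Figures were drawn with matplotlib 3.10.9.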

Additional observations from a re-analysis of the deposited data

How the results depend on the processing

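BAK1, BCL2L1, MCL1, BIRC2 and BOK kept their direction and passed in all 14 alternatives: the log2 fold change was 0.24 to 0.28 for BAK1, 0.22 to 0.25 for BCL2L1, 0.11 to 0.15 for MCL1, 0.086 to 0.13 for BIRC2 and -0.17 to -0.10 for BOK. BCL2 (0.070 to 0.12), XIAP (-0.074 to -0.031) and BIRC3 (-0.32 to -0.16) passed in none. BCL2L13 passed in 10 of 14, at 0.11 with upper-quartile scaling and from 0.10 to 0.16 with a library left out. BCL2L2 ranged from -0.0039 to 0.13 with a library left out and passed in 1. The number of the 10 genes called was 5 to 7 with a library left out, and the number of all genes called was 3607 (without PARGi replicate 2) to 4848. Leaving out a library gave 1 to 3 calls for apoptosome and caspase genes, 0 to 2 for outer membrane channels and 1 to 5 for mitophagy genes; upper-quartile scaling gave 0 for outer membrane channels. Of the 22 named pathway genes, 16 passed in every alternative.

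Both groups number their replicates alike, but no source says that the numbers pair the libraries. The replicate block called 4553 genes in all and changed no call among the 10 genes. Same-numbered libraries deviated together with correlations of -0.0078 to 0.016, and 2 of 6 libraries correlated best with their own number.

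The shares of the survival sum depend on the length used; the cause is the construction of the measure. With the longest transcript they were 59.7% in DMSO and 58.4% in PARGi for MCL1, 32.5% and 34.3% for BCL2L1, and 1.35% and 1.28% for BCL2. Without a length they were 66.5% and 65.5% for MCL1, 24.1% and 25.6% for BCL2L1, and 2.85% and 2.73% for BCL2. Over bases that no other gene's exons cover, chosen after seeing the data, they were 50.3% and 48.9% for MCL1, 42.1% and 44.0% for BCL2L1, 0.800% and 0.756% for BCL2, and 6.34% in PARGi for BCL2L2. Depth limits BIRC3, with 47 to 78 counts in a library.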
